A study of Rattus norvegicus with 30 samples.

Results

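The comparison described here set hearts of sucrose-fed rats that had been perfused with glucose outside the body against hearts of sucrose-fed rats that were frozen without perfusion. It holds 10 of the 30 arrays of the series, 5 in each group, taken by their sample titles, and each array carried the labelled RNA of 1 heart, which the study's design counts as a biological replicate. All 10 rats were male Sprague Dawley rats, 16 to 18 weeks old, that had been kept for 8 to 10 weeks on a diet high in sucrose, given in the labels as a means of bringing about insulin resistance. Every heart was taken out under chloral hydrate and put into ice-cold Krebs-Henseleit buffer, and RNA came from left ventricular tissue. The glucose-perfused hearts then worked for 60 min under normoxic and normothermic conditions at a filling pressure of 15 cm and an afterload of 100 cm of water. Their buffer supplied 25 mmol/L glucose, and as other substrates hydroxybutyrate at 10 mmol/L, propionate at 2 mmol/L and acetoacetate at 1 mmol/L. The non-perfused hearts were dissected at once. Work outside the body, the time spent there, the exchange of blood for buffer and the substrates of the buffer therefore changed together and cannot be told apart in this comparison. The series also held sucrose-fed hearts perfused with mannitol in place of glucose and the matching groups of chow-fed rats, which are used here only where stated.

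The working heart preparation ejects buffer against a pressure load and draws its energy from whatever the buffer contains. In heart muscle, fatty acids are the main fuel, and glucose, lactate and ketone bodies compete with them for oxidation. Removing a heart, cooling it and restarting its flow is also known as a stimulus for immediate-early genes, which are transcribed without new protein synthesis, and for cytokine genes that depend on NF-kappaB. Insulin resistance in heart muscle is known to shift fuel choice towards fatty acids and away from glucose.

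Signals are given as relative signal, which is the processed intensity of a gene's brightest probe divided by the 75th percentile of all probes on the same array, so that 1 marks that percentile. Values given in a row are those of replicates 1 to 5. Differences are given on the log2 scale as glucose-perfused minus non-perfused, with the SE (standard error) that limma's model gave, n = 5 arrays per group, and an adjusted p under 0.05 is what "rose" and "fell" stand for. The share of probes above background was 59.4% to 74.6% on the glucose-perfused arrays and 51.0% to 73.5% on the non-perfused arrays (exact permutation test, 2-sided p = 0.698, smallest p possible 0.00794). Non-perfused replicates 1 and 5 had a wider spread of negative controls than the other 8 arrays (standard deviation 10.6 and 8.07 intensity units, against 2.26 to 4.55). Pairs of the 2 groups lay on each of 4 slides, so that the difference could also be taken within slides, but every non-perfused array lay in row 1 of its slide and every glucose-perfused array in row 2, and row and perfusion cannot be told apart. The 12 tested markers listed for ventricular cardiomyocytes were all above background on all 10 arrays, with a summed relative signal of 4171 to 4775 in the glucose-perfused hearts and 4736 to 5418 in the non-perfused hearts. The atrial markers Nppa, Myl7, Myl4 and Sln were also above background on all 10 arrays, so detection of these markers does not test which chamber was sampled. In whole tissue, fewer cells of a type and less RNA per cell cannot be told apart.

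Of 18332 genes tested, 1597 changed (8.71%), of which 1016 were higher (5.54%) and 581 lower (3.17%) in the glucose-perfused hearts. The rises were larger than the falls in size: 283 genes rose at least 2-fold (1.54%) and 64 fell at least 2-fold (0.349%), 80 rises and 17 falls reached 4-fold, and 32 rises and 11 falls reached 10-fold. The median difference over all tested genes was -0.03. The 5 values of each group did not overlap for 1102 of the 1597 genes (69.0%), against 8.06% of all tested genes, and the difference had the same sign within all 4 slides for 1514 of the called genes (94.8%), against 30.7% of all tested genes. The called genes were chosen on these same arrays, which by itself raises both shares.

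Gene lists and their members were chosen with earlier results of these data known. Their counts here and below describe these arrays and are not an independent test. The 33 tested immediate-early transcription factor genes rose nearly as a whole: 29 rose and 0 fell, with a median of 2.14 against -0.03 over all genes. Their products are DNA-binding regulators of the AP-1, EGR, NR4A, KLF and ATF families. Fos, whose product pairs with Jun proteins in AP-1, had values of 13.7, 7.39, 12.1, 11.5 and 5.46 in the glucose-perfused hearts, against 0.300, 0.0217, 0.0553, 0.176 and 0.0213 in the non-perfused hearts. The lowest perfused heart was far above the highest non-perfused heart, a 142-fold rise (log2 difference 7.15, SE 0.68, adjusted p = 1.5e-08). Nr4a3, an orphan nuclear receptor gene, measured 4.05, 3.85, 1.54, 4.17 and 1.23 in the glucose-perfused hearts, against 0.0228, 0.0231, 0.0145, 0.245 and 0.0174 in the non-perfused hearts. Non-perfused replicate 4 stood far above the other non-perfused hearts, and the rise was 82.4-fold with it (log2 difference 6.37, SE 0.56, adjusted p = 4.22e-09) and 137-fold without it. The gene was above background on 2 of the 5 non-perfused arrays, so these folds rest partly on signal not above background, and after normexp background correction, which adds an offset of 50 intensity units, the rise was 19.4-fold. Atf3, a stress-induced repressor of the ATF family, had relative signals of 104, 66.0, 72.6, 72.5 and 43.2 in the glucose-perfused hearts, against 1.66, 0.647, 0.493, 2.48 and 0.598 in the non-perfused hearts, a rise of 72.3-fold (log2 difference 6.18, SE 0.40, adjusted p = 1.06e-11).

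For Egr1, a zinc finger factor induced by growth factors and stretch, the values were 12.9, 9.08, 18.8, 13.8 and 10.7 in the glucose-perfused hearts, against 0.795, 0.278, 0.265, 0.760 and 0.216 in the non-perfused hearts. It rose 32.1-fold (log2 difference 5.00, SE 0.40, adjusted p = 7.35e-10), and its relative Egr2 rose 33.3-fold (5.06, SE 0.43). Egr2 was above background on 3 of the 5 non-perfused arrays, and its rise was 8.84-fold after normexp background correction. Nr4a1 had 54.6, 44.9, 42.9, 56.6 and 35.2 in the glucose-perfused hearts, against 3.19, 0.671, 0.599, 2.19 and 0.684 in the non-perfused hearts. It rose 40.5-fold (5.34, SE 0.42), and Nr4a2 rose 25.1-fold (4.65, SE 0.31). Among the non-perfused hearts, replicates 1 and 4 held the highest 2 values of Fos, Atf3, Egr1, Egr2, Nr4a1 and Zfp36, so that these genes varied between hearts that had not been perfused. Junb, an inhibitory AP-1 partner, reached 67.5 to 122 in the glucose-perfused hearts, against 2.52 to 8.12 in the non-perfused hearts. Myc, which drives growth and ribosome production, rose 10.0-fold (3.32, SE 0.21). Klf10 and Csrnp1, other early transcription factor genes, rose 2.68-fold and 9.41-fold, and a dimmer probe of Csrnp1 differed by 1.67 on the log2 scale.

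Genes whose products end such a response also rose. Of 12 tested genes of mRNA decay and growth arrest 8 rose and 0 fell (median 0.95), and 5 of 9 rose where genes had to be above background on all 30 arrays. Zfp36, whose protein binds AU-rich elements and destroys cytokine messages, had 1.93, 1.36, 1.72, 2.31 and 1.41 in the glucose-perfused hearts, against 0.149, 0.0701, 0.0591, 0.151 and 0.0383 in the non-perfused hearts, a 21.0-fold rise (log2 difference 4.39, SE 0.35, adjusted p = 4.67e-10). Btg2, an antiproliferative partner of the deadenylase complex, rose 11.5-fold with 22.7 to 38.6 in the glucose-perfused hearts, against 1.41 to 4.16 in the non-perfused hearts. Zc3h12a, an RNase that cuts inflammatory messages, rose 3.59-fold (1.85, SE 0.18). Of 22 tested feedback inhibitors of MAP kinase and cytokine signalling 14 rose and 0 fell (median 0.78), with 9 rising after normexp background correction. Dusp1, which dephosphorylates p38 and JNK, rose 4.07-fold (2.03, SE 0.24), and Socs3, which blocks signalling from the receptors of the IL-6 family, rose 5.41-fold (2.43, SE 0.24). Errfi1, whose protein inhibits the receptor of epidermal growth factor, rose 4.40-fold, and Spry2, an inhibitor of Ras signalling, rose 1.96-fold (0.97, SE 0.10).

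**Figure D1:**
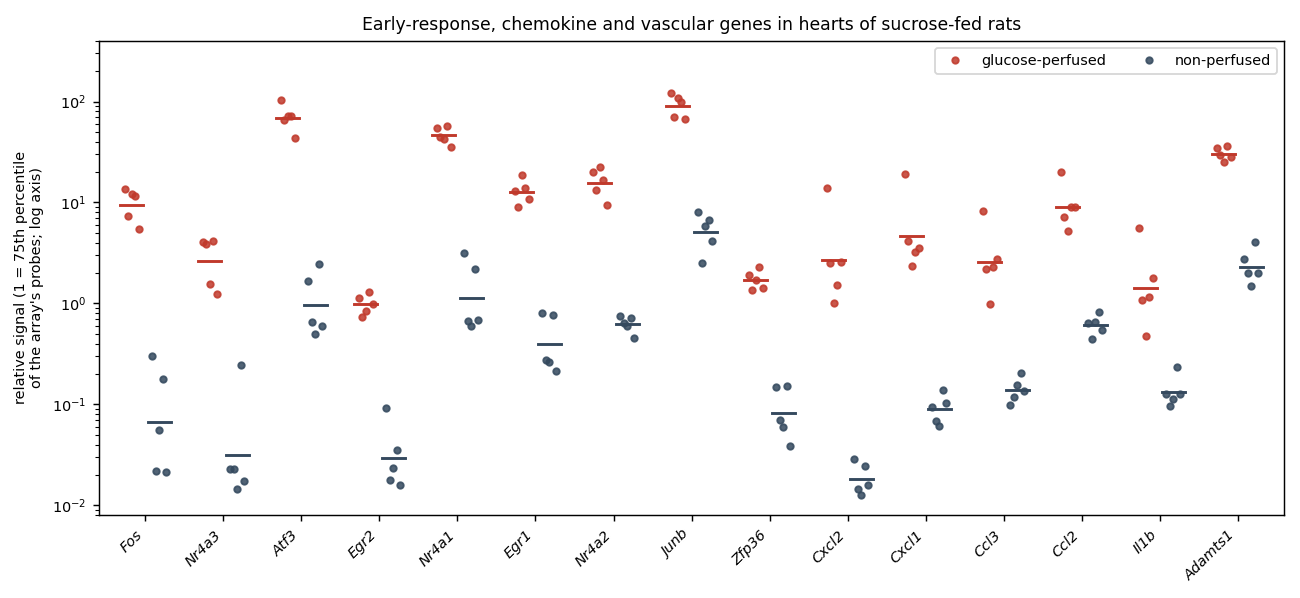
Relative signal (log axis) of 15 early-response, chemokine and vascular genes in each of 5 glucose-perfused (red, left) and 5 non-perfused (dark blue, right) hearts of sucrose-fed rats, with the mean of the log2 values as a line. No gene shown has overlapping groups, and Fos lies at 5.46 to 13.7 in the glucose-perfused hearts and at 0.0213 to 0.300 in the non-perfused hearts.

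Promoter sequences are shown for 7 of the genes that rose because their windows hold the letters of response elements that are textbook targets of the pathways above. A RefSeq table of rat promoters (GRCr8) held 183 of the 233 genes chosen for naming, and the 250 bases before the annotated start were searched on both strands for 3 motifs. The first was the palindromic cyclic AMP response element TGACGTCA, the next the serum response core, CCATAT followed by any 2 bases and GG, and the last the NF-kappaB site, GGG followed by any 2 bases and TTTCC, which do not overlap in the stretches below. Capitals mark the matches, and each stretch is written 5′ to 3′ on the strand of its gene.
Cxcl2: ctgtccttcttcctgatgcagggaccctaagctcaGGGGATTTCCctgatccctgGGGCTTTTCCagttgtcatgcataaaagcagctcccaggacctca
Cxcl1: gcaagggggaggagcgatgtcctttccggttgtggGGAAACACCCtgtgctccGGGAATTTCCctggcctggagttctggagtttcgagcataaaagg
Il6: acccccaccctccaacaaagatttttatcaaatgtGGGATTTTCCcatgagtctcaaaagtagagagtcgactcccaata
Egr2: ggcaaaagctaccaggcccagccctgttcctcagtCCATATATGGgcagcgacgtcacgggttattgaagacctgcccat
Ppp1r15a: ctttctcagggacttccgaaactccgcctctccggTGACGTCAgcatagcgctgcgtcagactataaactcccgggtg
Btg2: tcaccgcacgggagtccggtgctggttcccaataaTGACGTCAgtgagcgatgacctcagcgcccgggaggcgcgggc
Dusp1: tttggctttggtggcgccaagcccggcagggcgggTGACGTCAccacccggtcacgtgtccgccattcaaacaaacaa
The stretches lie at chr14:17467265-17467364 (Cxcl2, minus strand), chr14:17479361-17479458 (Cxcl1, minus strand), chr4:5894599-5894678 (Il6, minus strand), chr20:21054480-21054559 (Egr2, minus strand), chr1:105139620-105139697 (Ppp1r15a, minus strand), chr13:48087849-48087926 (Btg2, minus strand) and chr10:17184694-17184771 (Dusp1, plus strand). In all promoters of the table the response element TGACGTCA was found in 1.70% of 27457 windows, the serum response core in 0.412% and the NF-kappaB site in 1.28%. Among 617 genes that rose and had a window the shares were 5.35%, 0.810% and 2.59%, among the 178 of them that rose at least 2-fold 9.55%, 1.12% and 3.37%, among 363 genes that fell 3.03%, 0% and 0.275%, and among all 9288 tested genes with a window 2.70%, 0.334% and 1.497%. A match describes letters of the window and does not show that a factor was bound there, and a window without one does not speak for or against a factor.

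Chemokine genes rose as well. Cxcl2, which encodes a neutrophil attractant, was measured at 14.1, 2.54, 1.01, 1.53 and 2.58 in the glucose-perfused hearts, against 0.0286, 0.0146, 0.0127, 0.0246 and 0.0161 in the non-perfused hearts, a rise of 147-fold (log2 difference 7.20, SE 0.46, adjusted p = 9.28e-12). Its neighbour Cxcl1 had 19.1, 4.17, 2.35, 3.23 and 3.56 in the glucose-perfused hearts, against 0.0937, 0.0687, 0.0611, 0.138 and 0.103 in the non-perfused hearts and rose 52.1-fold (5.70, SE 0.39). Perfused replicate 1 was the highest of its group for both, and for Ccl2, Ccl3, Ccl4, Ccl7, Il1b, Tnf and Icam1 as well. Without that heart the rise of Cxcl2 was 97.0-fold. Cxcl2 was above background on 2 of the 5 non-perfused arrays, and its rise was 25.7-fold after normexp background correction. The monocyte attractant gene Ccl2 gave 20.2, 7.10, 5.26, 9.07 and 8.99 in the glucose-perfused hearts, against 0.636, 0.442, 0.647, 0.830 and 0.550 in the non-perfused hearts (log2 difference 3.90, SE 0.30, adjusted p = 4.02e-10). Ccl3 rose 18.5-fold and Ccl7 14.6-fold. Of 22 tested chemokine genes 10 rose and 1 fell (median 0.64), and 5 of 14 rose where genes had to be above background on all 30 arrays. Cxcl12, a homeostatic chemokine gene, was the member that fell (-0.50, SE 0.15), a call that ended without perfused replicate 1, 2 or 4 or non-perfused replicate 4 or 5 (adjusted p up to 0.105). A dimmer probe of Cxcl12 differed by -0.07, and the call also ended where the mean of a gene's probes was used.

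Of 25 tested genes of cytokines and their receptors 10 rose and 1 fell (median 0.29), against 6 of 24 rising in the authors' deposited values. The interleukin gene Il1b stood at 5.55, 1.09, 0.475, 1.15 and 1.77 in the glucose-perfused hearts, against 0.126, 0.0953, 0.113, 0.232 and 0.128 in the non-perfused hearts, a 10.8-fold rise (log2 difference 3.43, SE 0.42, adjusted p = 1.05e-06). Tnf had relative signals of 2.39 to 11.6 in the glucose-perfused hearts, against 0.526 to 1.10 in the non-perfused hearts and rose 6.40-fold (2.68, SE 0.26). Il6 was dim, at 0.128, 0.0421, 0.0501, 0.0908 and 0.0796 in the glucose-perfused hearts, against 0.0218, 0.0141, 0.00564, 0.0118 and 0.0141 in the non-perfused hearts, and was well above background on 3 perfused and 2 non-perfused arrays; it rose 5.84-fold (2.55, SE 0.32), and 1.66-fold after normexp background correction. Il16, which encodes a lymphocyte attractant cytokine, was the member that fell (log2 difference -1.50, SE 0.23, adjusted p = 2.97e-05). Of 11 tested NF-kappaB genes 8 rose and 0 fell (median 0.72), against 5 of 10 in the authors' deposited values. They included the inhibitors Nfkbie (3.20-fold) and Bcl3 (3.16-fold) and the subunit gene Nfkb2 (1.27-fold), and the kinase gene Map3k8 rose 3.44-fold.

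Macrophage markers had higher values as well: 15 of 15 tested markers were higher in the perfused hearts, 4 passed the threshold (Mrc1, Adgre1, Cd14 and Lyve1), and the summed level was 19.1 to 24.7 in the glucose-perfused hearts and 14.1 to 21.5 in the non-perfused hearts. Against the non-perfused hearts of the same diet, 0 markers rose in glucose-perfused chow-fed hearts (median 0.11) and 5 in mannitol-perfused sucrose-fed hearts (median 0.41). Mrc1, a mannose receptor gene of resident macrophages, rose 2.26-fold (log2 difference 1.18, SE 0.24, adjusted p = 0.00163), and Adgre1, the F4/80 antigen gene, 1.67-fold (0.74, SE 0.19). The call of Mrc1 ended after normexp background correction (adjusted p = 0.229), and that of Adgre1 in the authors' deposited values, with only the 2 groups in the fit and without the arrays of wide control spread (adjusted p up to 0.263). The call of Cd14 ended without perfused replicate 1, 2 or 3 or non-perfused replicate 1, 2, 4 or 5 (adjusted p up to 0.132), and that of Lyve1 without perfused replicate 2 or 4 or non-perfused replicate 2, 3, 4 or 5 (adjusted p up to 0.119). Of the 15 markers 1 rose after normexp background correction and in the authors' deposited values, and 2 rose without perfused replicate 2 or non-perfused replicate 2, 4 or 5. The part of these cells in the cytokine rises was not tested.

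Endothelial activation genes rose, and most endothelial identity genes did not pass the test. Of 18 tested genes of leukocyte adhesion and vascular activation 14 rose and 0 fell (median 1.22), and 9 of 11 rose where genes had to be above background on all 30 arrays. Of 16 endothelial identity genes 2 rose and 1 fell (median 0.01), shares of 12.5% and 6.25% against 5.54% and 3.17% of all genes. Icam1, the adhesion molecule to which leukocytes attach, was measured at 5.39, 2.79, 2.44, 2.43 and 2.59 in the glucose-perfused hearts, against 0.550, 0.464, 0.484, 0.617 and 0.497 in the non-perfused hearts. It rose 5.72-fold (log2 difference 2.52, SE 0.18, adjusted p = 6.32e-11). Plat, which encodes a plasminogen activator, rose 2.37-fold (1.25, SE 0.11) and the urokinase receptor gene Plaur 3.40-fold, and a dimmer probe of Plaur differed by 2.86 on the log2 scale. Apold1, an early gene of stressed vessels, rose 12.3-fold, and Procr, the receptor of protein C, 4.09-fold. Cldn5, a tight junction gene of endothelium, rose 2.73-fold (1.45, SE 0.13), and Flt1, a receptor of vascular endothelial growth factor, 1.55-fold (0.63, SE 0.09), while the apelin receptor gene Aplnr fell (log2 difference -0.67, SE 0.14, adjusted p = 0.00212). The 9 endothelial markers had a summed level of 35.1 to 45.9 in the glucose-perfused hearts and 35.9 to 41.2 in the non-perfused hearts.

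Of 25 tested growth factor genes 11 rose and 1 fell (median 0.26), against 6 of 24 rising in the authors' deposited values. Gdf15, a stress hormone of the TGF-beta family, rose 11.2-fold with 0.448 to 1.05 in the glucose-perfused hearts, against 0.0428 to 0.0802 in the non-perfused hearts. It was above background on 3 of the 5 non-perfused arrays, and its rise was 4.44-fold after normexp background correction. Hbegf, a ligand of the epidermal growth factor receptor, rose 2.82-fold (1.495, SE 0.17), and Areg, another ligand of that receptor, was above background on 4 perfused and 0 non-perfused arrays and was at least 3.36-fold higher in the perfused hearts. Such a bound sets the brighter group's mean against the lowest signal called above background on the arrays of the dimmer group, or the dim probe's own signal where that is higher. It holds for the processed intensity only, and after normexp background correction Areg rose 1.53-fold. Vegfa rose 1.75-fold (0.81, SE 0.12) and Tgfb1 1.49-fold (0.58, SE 0.09). Dimmer probes of Vegfa differed by 0.48 to 0.52. Of 18 tested matrix genes 8 rose and 1 fell (median 0.19), against 4 of 16 rising in the authors' deposited values. Adamts1, a protease that cleaves versican, had 34.8, 29.8, 25.2, 35.9 and 28.1 in the glucose-perfused hearts, against 2.72, 1.98, 1.49, 4.09 and 2.00 in the non-perfused hearts, a 13.2-fold rise without overlap (log2 difference 3.72, SE 0.19, adjusted p = 1.72e-13). Ccn1 and Ccn2, matricellular targets of serum response factor and YAP, rose 11.5-fold and 3.79-fold.

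**Figure D2:**
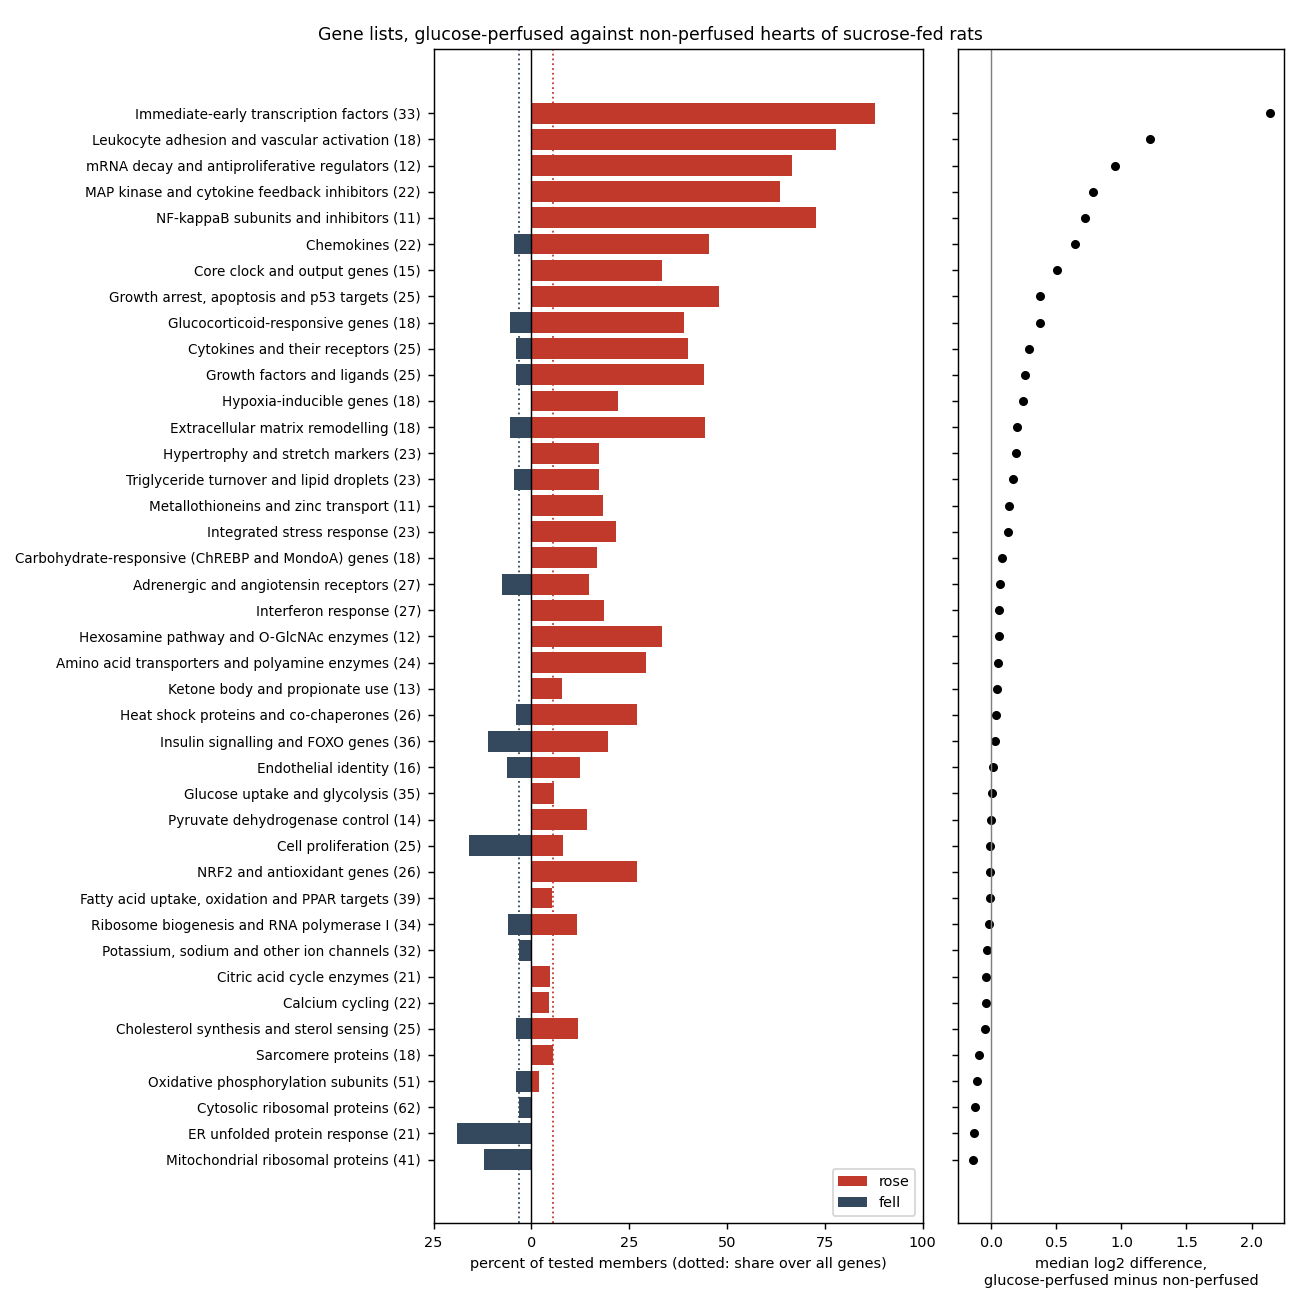
For 41 gene lists (tested members in brackets), the share of tested members that rose (red, right of 0) or fell (dark blue, left of 0) in glucose-perfused against non-perfused hearts of sucrose-fed rats, with the shares over all tested genes dotted at 5.54% and 3.17%, and the median log2 difference. Early-response, adhesion and decay lists lie at the top with medians of 2.14, 1.22 and 0.95, and the unfolded protein response and ribosomal lists at the bottom with -0.13 to -0.14. The lists were chosen with earlier results of these data known.

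In the integrated stress response, in which ATF4 drives transcription when translation is checked, 5 of 23 tested genes rose and 0 fell (median 0.13). Atf4 itself rose 3.19-fold with no overlap (log2 difference 1.68, SE 0.09, adjusted p = 6.68e-13). Ddit3, which encodes the factor CHOP, had 52.6, 44.7, 38.8, 59.1 and 40.9 in the glucose-perfused hearts, against 13.9, 9.92, 8.67, 9.88 and 9.20 in the non-perfused hearts, a rise of 4.59-fold (2.20, SE 0.12). Ppp1r15a, which directs the phosphatase that restores translation, rose 5.00-fold (2.32, SE 0.14). In the unfolded protein response of the endoplasmic reticulum 0 of 21 tested genes rose and 4 fell (median -0.14), namely the chaperone genes Hyou1 (-0.38, SE 0.10) and Hsp90b1 (-0.34, SE 0.09), the translocon gene Sec61b (-0.36, SE 0.11) and Sdf2l1 (-0.30, SE 0.09). The call of Hyou1 ended without non-perfused replicate 3 (adjusted p up to 0.0533), that of Hsp90b1 without perfused replicate 4 (adjusted p up to 0.0649), that of Sec61b without perfused replicate 4 or 5 or non-perfused replicate 1, 2, 4 or 5 (adjusted p up to 0.123) and that of Sdf2l1 without perfused replicate 1 or 4 or non-perfused replicate 2 or 3 (adjusted p up to 0.0903). The count was 1 without perfused replicate 4, 2 without non-perfused replicate 2 or 3, and 0 in the authors' deposited values, in which the median was -0.02 against 0.08 over all genes.

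Among 26 tested heat shock genes 7 rose and 1 fell (median 0.04), against 4 rising in the authors' deposited values. The small heat shock gene Hspb1 rose 1.81-fold (0.86, SE 0.18) and the co-chaperone genes Dnajb4 and Dnaja1 rose 2.26-fold and 2.05-fold. Of 26 tested NRF2 and antioxidant genes 7 rose and 0 fell (median -0.01), with 4 rising in the authors' deposited values and 4 without the arrays of wide control spread. Osgin1, an oxidative stress gene, rose 5.52-fold (2.47, SE 0.22), Srxn1, which reduces oxidised peroxiredoxins, 2.40-fold, and Gclc, which starts glutathione synthesis, 1.67-fold (0.74, SE 0.10). Hmox1, the inducible heme oxygenase, stood at 1.29, 1.01, 0.649, 1.47 and 0.736 in the glucose-perfused hearts, against 0.503, 0.459, 0.534, 0.381 and 0.425 in the non-perfused hearts and rose 2.15-fold (log2 difference 1.10, SE 0.28, adjusted p = 0.0114), a call that ended without the arrays of wide control spread (adjusted p up to 0.113 over all alternatives). The metal-binding metallothionein genes Mt1 and Mt2A rose, Mt1 by 3.24-fold and Mt2A by 3.56-fold, and a dimmer probe of Mt2A differed by 2.55 on the log2 scale. Of 25 tested genes of growth arrest, apoptosis and p53, 12 rose and 0 fell (median 0.37), led by Gadd45b (5.83-fold, 2.54, SE 0.14), Gadd45g (6.65-fold), Plk3 (9.13-fold) and the survival gene Mcl1 (4.07-fold). In the clock, 5 of 15 tested genes rose and 0 fell (median 0.51), 8 without non-perfused replicate 1 and 3 in the authors' deposited values. Per2, a repressor of the clock, had 0.807, 1.08, 0.263, 0.939 and 0.263 in the glucose-perfused hearts, against 0.438, 0.0950, 0.0913, 0.0975 and 0.0647 in the non-perfused hearts. Non-perfused replicate 1 was the highest of its group by several times for Per2 and Ciart, and the groups overlapped for both. Per2 rose 4.72-fold (log2 difference 2.24, SE 0.50, adjusted p = 0.00318), Ciart rose 12.1-fold with all arrays and 22.3-fold without non-perfused replicate 1, and 3.49-fold after normexp background correction (2 of 5 non-perfused arrays above background), and Bhlhe40, another repressor of the clock, rose 2.88-fold without overlap.

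Genes of glucose use changed at few points. Of 35 tested genes of glucose uptake and glycolysis 2 rose and 0 fell (median 0.00), a share of rises near that of all genes. Slc2a3, a glucose transporter gene of high affinity, was measured at 0.200, 0.163, 0.197, 0.204 and 0.139 in the glucose-perfused hearts, against 0.0213, 0.0321, 0.0257, 0.0267 and 0.0758 in the non-perfused hearts, a rise of 5.52-fold (log2 difference 2.46, SE 0.22, adjusted p = 4.23e-09). It was above background on 4 of the 5 non-perfused arrays, and its rise was 1.97-fold after normexp background correction. The lactate transporter gene Slc16a3 rose 1.61-fold (0.68, SE 0.10). For Slc2a4, the insulin-responsive transporter of muscle, the hearts gave 21.7 to 24.8 in the glucose-perfused hearts, against 20.7 to 26.7 in the non-perfused hearts, a difference of 0.00, SE 0.08, and for Slc2a1, the basal transporter, 1.96 to 2.71 in the glucose-perfused hearts, against 1.89 to 2.43 in the non-perfused hearts, a difference of 0.04, SE 0.17. Hk2, the hexokinase of muscle, differed by 0.21, SE 0.12 (adjusted p = 0.326). The 95% intervals of these differences were -0.16 to 0.16 for Slc2a4, -0.30 to 0.38 for Slc2a1 and -0.03 to 0.45 for Hk2.

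Of 14 tested genes that control pyruvate dehydrogenase 2 rose and 0 fell. Pdk4, the kinase that switches the complex off and spares glucose, had 0.776, 0.904, 0.382, 0.776 and 0.687 in the glucose-perfused hearts, against 0.162, 0.328, 0.292, 0.262 and 0.228 in the non-perfused hearts, and it rose 2.74-fold (log2 difference 1.45, SE 0.23, adjusted p = 5.96e-05). Pdp2, a phosphatase that switches the complex on, rose too, by 1.70-fold (log2 difference 0.76, SE 0.16, adjusted p = 0.00235), with 30.6, 19.6, 27.6, 32.6 and 21.9 in the glucose-perfused hearts, against 18.0, 13.2, 14.0, 16.0 and 15.8 in the non-perfused hearts. Of 12 tested genes of the hexosamine pathway, which diverts glucose into protein O-GlcNAc, 4 rose and 0 fell: Gfpt2, Uap1, Gnpnat1 and Ogt. That was 33.3% against 5.54% of all genes, and 2 rose with only the 2 groups and the replicate block in the fit. Against non-perfused hearts of the same diet, 1 rose and 0 fell in glucose-perfused chow-fed hearts. In mannitol-perfused sucrose-fed hearts 2 rose and 1 fell. Gfpt2, an isoform of the enzyme at the entry of the pathway, had 0.177, 0.154, 0.0906, 0.130 and 0.110 in the glucose-perfused hearts, against 0.0330, 0.0533, 0.0726, 0.0907 and 0.0294 in the non-perfused hearts. The groups just overlapped, at perfused replicate 3 and non-perfused replicate 4, and the rise was 2.54-fold (log2 difference 1.34, SE 0.24, adjusted p = 3.22e-04). After normexp background correction the rise of Gfpt2 was 1.44-fold. Uap1 rose 2.38-fold (1.25, SE 0.18) and Gnpnat1 1.39-fold (0.47, SE 0.12). The call of Ogt ended without perfused replicate 2 or 4 or non-perfused replicate 2 (adjusted p up to 0.0869).

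Of 18 tested carbohydrate-responsive genes 3 rose and 0 fell. Txnip, a glucose-induced inhibitor of glucose uptake and thioredoxin, was measured at 18.6, 18.1, 11.0, 18.3 and 21.2 in the glucose-perfused hearts, against 11.0, 9.20, 14.3, 13.7 and 8.02 in the non-perfused hearts. Perfused replicate 3 was as low as the middle of the non-perfused hearts, and the difference changed sign between slides, from -0.38 to 1.08. The call (log2 difference 0.64, SE 0.20, adjusted p = 0.0393) ended without perfused replicate 1, 2, 4 or 5 or non-perfused replicate 1, 2 or 5 (adjusted p up to 0.133). It also ended under other alternatives, among them the authors' deposited values (adjusted p up to 0.39 over all alternatives).

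**Figure D3:**
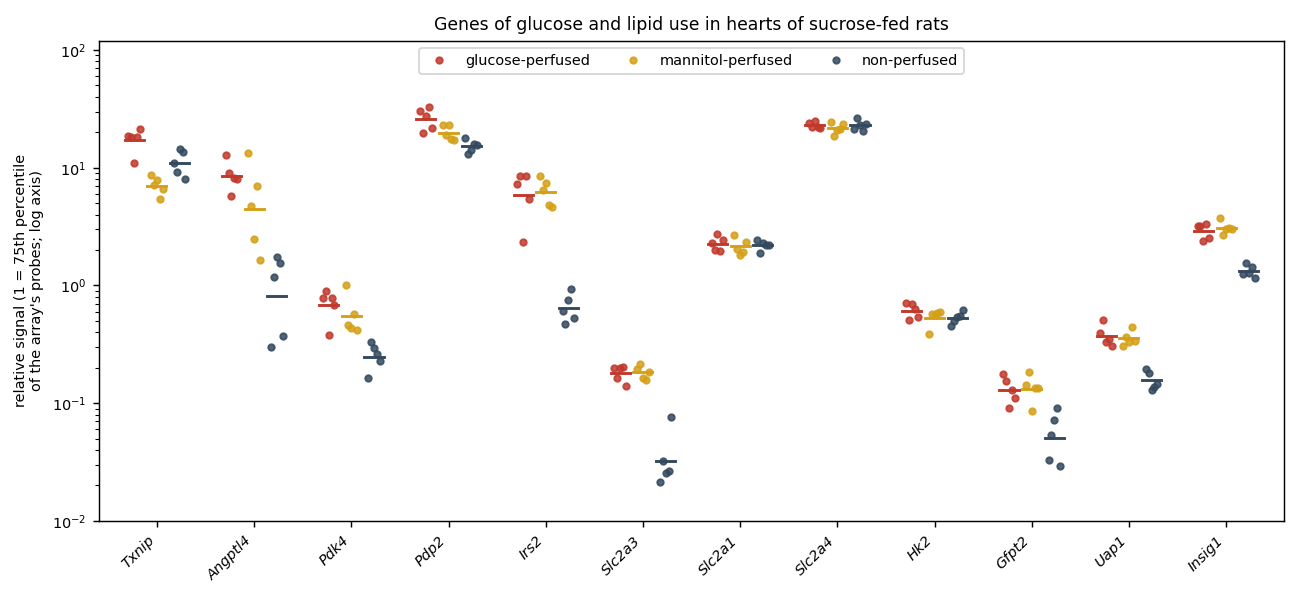
Relative signal (log axis) of 12 genes of glucose and lipid use in the 5 glucose-perfused (red, left), 5 mannitol-perfused (yellow, middle) and 5 non-perfused (dark blue, right) hearts of sucrose-fed rats, with the mean of the log2 values as a line. Irs2 and Slc2a3 are higher in both perfused groups, Slc2a4 lies at 21.7 to 24.8 in the glucose-perfused hearts and 20.7 to 26.7 in the non-perfused hearts, and Txnip is higher with glucose than with mannitol.

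Of 39 tested genes of fatty acid uptake and oxidation 2 rose and 0 fell (median -0.01), a share of rises near that of all genes. Of 23 genes of triglyceride turnover 4 rose and 1 fell (median 0.16), against 1 of 22 rising in the authors' deposited values. Angptl4, which inhibits lipoprotein lipase and is induced by fatty acids and fasting, was measured at 12.9, 8.97, 5.79, 8.22 and 8.10 in the glucose-perfused hearts, against 0.299, 1.17, 1.73, 1.54 and 0.374 in the non-perfused hearts. Its values spread over a wide range in the non-perfused hearts, and it rose 10.5-fold (log2 difference 3.39, SE 0.51, adjusted p = 2.88e-05). Dgat2, which makes triglyceride, rose 2.00-fold (1.00, SE 0.25), Lipe, the hormone-sensitive lipase, 1.80-fold (0.85, SE 0.17, a dimmer probe 0.48) and the lipid droplet coat gene Plin2 1.31-fold (0.39, SE 0.10). Cpt1a, the gate of fatty acids into mitochondria, differed by 0.17, SE 0.11 (adjusted p = 0.453). Of 13 genes of ketone body and propionate use, the substrates present in the buffer, 1 rose, the monocarboxylate transporter gene Slc16a7 (1.73-fold, 0.79, SE 0.20). That share, 7.69%, was near the 5.54% of all genes. Of 25 cholesterol genes 3 rose and 1 fell. Insig1, which holds back sterol synthesis, rose 2.19-fold (log2 difference 1.13, SE 0.11, adjusted p = 1.03e-08), and Nr1h3, the oxysterol receptor LXR alpha, fell (log2 difference -0.56, SE 0.11, adjusted p = 8.17e-04). Of 24 genes of amino acid transport and polyamines 7 rose and 0 fell, led by Sat1, which degrades polyamines (6.29-fold, 2.65, SE 0.22), and including the amino acid transporter gene Slc38a2 (1.84-fold). That count was 3 of 22 in the authors' deposited values and 4 without the arrays of wide control spread.

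Insulin signalling genes went both ways: 7 of 36 tested rose and 4 fell (median 0.03), and after normexp background correction 4 rose and 1 fell, and in the authors' deposited values 3 rose and 0 fell. Irs2, an insulin receptor substrate that is known to be repressed by insulin in liver, had 7.28, 8.49, 2.33, 8.53 and 5.45 in the glucose-perfused hearts, against 0.605, 0.474, 0.745, 0.941 and 0.525 in the non-perfused hearts. It rose 9.13-fold (log2 difference 3.19, SE 0.25, adjusted p = 5.93e-10), with perfused replicate 3 the lowest of its group. The insulin receptor gene Insr had 0.146 to 0.179 in the glucose-perfused hearts, against 0.111 to 0.148 in the non-perfused hearts and differed by 0.22, SE 0.11 (adjusted p = 0.234). Trib1, a pseudokinase gene, rose 2.79-fold (1.48, SE 0.20), and the muscle ubiquitin ligase gene Trim63 1.30-fold (0.38, SE 0.08), while Fbxo32, another muscle ubiquitin ligase gene, differed by -0.18, SE 0.15 (adjusted p = 0.574). Igfbp5, which binds insulin-like growth factors, fell with overlap (log2 difference -0.93, SE 0.23, adjusted p = 0.00798). The number of falls was 1 without perfused replicate 4 and 2 without perfused replicate 1 or non-perfused replicate 2. Of 18 tested glucocorticoid-responsive genes 7 rose and 1 fell (median 0.37), and Sgk1, a kinase gene of that set, rose 2.29-fold (1.19, SE 0.18). Of 27 tested genes of adrenergic and angiotensin signalling 4 rose and 2 fell. Rgs16 and Rgs2, which shorten G protein signals, rose 2.73-fold and 1.93-fold, and the beta1-adrenergic receptor gene Adrb1 differed by 0.35, SE 0.16 (adjusted p = 0.216).

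Most genes of energy production and of protein synthesis had slightly lower values in the perfused hearts, by sizes that the choice of scaling could turn. Of 51 tested subunits of oxidative phosphorylation 6 had higher values, and 1 rose and 2 fell (median -0.11). These were shares of 1.96% and 3.92%, against 5.54% and 3.17% of all genes, so the share of falls was near that of all genes. The subunit that rose was Uqcrq of complex III, and it stood apart from the other subunits with 7.05 to 17.1 in the glucose-perfused hearts, against 3.02 to 5.76 in the non-perfused hearts (log2 difference 1.56, SE 0.19, adjusted p = 1.41e-06). Of 41 mitochondrial ribosomal protein genes 5 fell and 0 rose (median -0.14), led by Mrpl19 (log2 difference -0.34, SE 0.06, adjusted p = 3.94e-04). That count was 1 with quantile normalization, 0 in the authors' deposited values, 2 without non-perfused replicate 4 or 5, and 3 without perfused replicate 2 or 3 or non-perfused replicate 2. Of 62 cytosolic ribosomal protein genes 2 were higher and 2 fell (median -0.13), a share of falls near that of all genes (3.23% against 3.17%). They were Rpl32 (log2 difference -0.38, SE 0.09, adjusted p = 0.00547, dimmer probes -0.23 and -0.10) and Rps10 (-0.27, SE 0.08), the call of Rps10 ending without perfused replicate 2 or 4 or non-perfused replicate 2 or 3 (adjusted p up to 0.0765). The number of falls was 0 with quantile normalization and in the authors' deposited values, 6 with median scaling and 10 with slide as a fixed block, and the call of Rpl32 ended under 5 alternatives (adjusted p up to 0.999). In the authors' deposited values, in which the median of all genes was 0.08, the medians of these 3 lists were 0.06, -0.03 and 0.01, and with quantile normalization they were 0.02, -0.09 and -0.04; the sign of the oxidative and cytosolic lists thus depended on the scaling.

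Contractile genes passed the test at shares near those of all genes. Of sarcomere genes 5.56% rose and of calcium cycling genes 4.55%, against 5.54% of all genes, and 3.125% of ion channel genes fell, against 3.17%. Of 18 tested sarcomere genes 1 rose, Tcap, which encodes the titin cap (0.81, SE 0.24), and 0 fell; its call ended without perfused replicate 1, 2 or 3 or non-perfused replicate 4 or 5 (adjusted p up to 0.084). Of 22 calcium cycling genes 1 rose, the calcium channel subunit gene Cacnb2 (0.49, SE 0.13). Its call ended without non-perfused replicate 5 (adjusted p up to 0.0557). It also ended under other alternatives, among them normexp and the authors' deposited values (adjusted p up to 0.64 over all alternatives). Of 32 ion channel genes 0 rose and 1 fell. Atp2a2, the calcium pump of the sarcoplasmic reticulum, had 261 to 465 in the glucose-perfused hearts, against 377 to 505 in the non-perfused hearts and differed by -0.25, SE 0.13 (adjusted p = 0.264), and by 0.06 on a dimmer probe. The fall was that of Kcne3, a potassium channel subunit gene above background on 0 perfused and 3 non-perfused arrays, at least 2.31-fold lower in the perfused hearts (adjusted p = 3.87e-04). After normexp background correction Kcne3 was 1.34-fold lower. Of 23 hypertrophy and stretch markers 4 rose and 0 fell (median 0.19). The natriuretic peptide genes overlapped between the groups: Nppb gave 106, 71.7, 96.8, 105 and 114 in the glucose-perfused hearts, against 40.04, 66.1, 18.1, 75.3 and 80.5 in the non-perfused hearts and differed by 0.99, SE 0.33 (adjusted p = 0.065), and Nppa gave 2.86, 3.23, 3.06, 2.68 and 3.48 in the glucose-perfused hearts, against 7.52, 8.63, 0.793, 3.88 and 3.87 in the non-perfused hearts and differed by -0.31, SE 0.78 (adjusted p = 0.884). Nppa, which marks atrial tissue, was spread widely among the non-perfused hearts and lay close together in the perfused hearts. Of 25 cell cycle genes 2 rose, Pcna (1.77-fold, 0.82, SE 0.16) and Cdk2 (1.96-fold), and 4 fell, a count of 0 to 2 without perfused replicate 1, 2, 4 or 5 or non-perfused replicate 1, 2 or 3, of 0 in the authors' deposited values and of 7 with slide as a fixed block. Of 27 interferon-responsive genes 5 rose and 0 fell, led by Oasl (2.66-fold, 1.41, SE 0.27) and Irf1 (2.24-fold, 1.16, SE 0.18), against 2 after normexp background correction. Of 18 hypoxia-inducible genes 4 rose and 0 fell, among them Stc1, a secreted glycoprotein gene (2.97-fold, 1.57, SE 0.18).

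The largest falls were those of blood cell genes. Of 10 tested red cell markers 9 fell, with a median of -6.34 (4 of 5 where genes had to be above background on all 30 arrays), and their summed relative signal was 9.003 to 15.7 in the glucose-perfused hearts and 595 to 978 in the non-perfused hearts. The beta-globin gene Hbb had 1.11, 0.828, 0.243, 0.368 and 0.141 in the glucose-perfused hearts, against 150.3, 268, 188, 243 and 185 in the non-perfused hearts, a fall of 493-fold (log2 difference -8.95, SE 0.95, adjusted p = 1.03e-07). Alas2, the erythroid enzyme that starts heme synthesis, had 0.0282, 0.0211, 0.0249, 0.0284 and 0.0188 in the glucose-perfused hearts, against 0.953, 1.81, 1.78, 1.98 and 1.36 in the non-perfused hearts and fell 63.7-fold (-5.99, SE 0.36). It was above background on 3 of the 5 perfused arrays, and its fall was 15.4-fold after normexp background correction. Globin copies are near-identical, and probes may read more than 1 of them.

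White cell genes did not move as a block. Cd52, a lymphocyte and monocyte surface gene, was at 0.00748, 0.0133, 0.0185, 0.00670 and 0.00709 in the glucose-perfused hearts, against 0.129, 0.217, 0.253, 0.259 and 0.170 in the non-perfused hearts. No perfused array was well above background, and the fall was at least 16.5-fold in the processed intensity. After normexp background correction, with its offset, it was 2.91-fold. The neutrophil genes S100a9 and S100a8 were above background on 1 and 0 perfused arrays and on 5 and 3 non-perfused arrays; S100a9 fell 14.7-fold (-3.87, SE 0.44), and 2.70-fold after normexp background correction, and S100a8 at least 3.61-fold with overlap (adjusted p = 0.00565), a call that ended with only the 2 groups and the replicate block in the fit. Of 8 tested neutrophil markers 2 fell and 0 rose, and of 17 such markers on the array 8 were above background on no glucose-perfused array and 8 on no non-perfused array. The platelet receptor gene Clec1b, above background on 0 perfused and 3 non-perfused arrays, fell at least 4.57-fold, and 1.95-fold after normexp background correction. Of 7 tested platelet markers 2 fell and 0 rose. The B cell receptor gene Cd79b was at least 2.20-fold lower, a call that ended without perfused replicate 1 or 5 or non-perfused replicate 3 (adjusted p up to 0.0769). After normexp background correction Cd79b was 1.36-fold lower. Among 5 tested B cell markers 1 fell and 0 rose. Their summed level was 1.08 to 1.52 in the glucose-perfused hearts and 1.12 to 1.79 in the non-perfused hearts. S100a8, Clec1b and Cd79b were above background on 4 or more of 5 arrays only in groups outside this comparison. Of 14 T and NK cell markers, 4 rose and 0 fell, led by the granzyme gene Gzmb (3.04-fold, log2 difference 1.61, SE 0.29, adjusted p = 2.66e-04), and 2 rose after normexp background correction or without the arrays of wide control spread, 1 of 13 in the authors' deposited values and 1 of 5 where genes had to be above background on all 30 arrays.

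Npy, the gene of a transmitter peptide of sympathetic nerves, was measured at 0.0533, 0.0161, 0.0315, 0.0397 and 0.0614 in the glucose-perfused hearts, against 0.437, 1.19, 0.797, 1.61 and 0.728 in the non-perfused hearts. It fell 23.6-fold (log2 difference -4.56, SE 0.41, adjusted p = 4.65e-09), with a dimmer probe of the gene at -2.72 on the log2 scale. Npy was above background on 3 of the 5 perfused arrays, and its fall was 7.51-fold after normexp background correction. Of the other 11 tested markers of sympathetic neurons and Schwann cells none passed the threshold, and the summed level of all 12 was 7.06 to 10.1 in the glucose-perfused hearts and 8.21 to 11.99 in the non-perfused hearts. Gja5, which encodes a connexin of atrial muscle, conduction fibres and arteries, fell 2.30-fold (log2 difference -1.20, SE 0.21, adjusted p = 1.91e-04), the only call among 13 tested atrial and conduction markers.

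**Figure D4:**
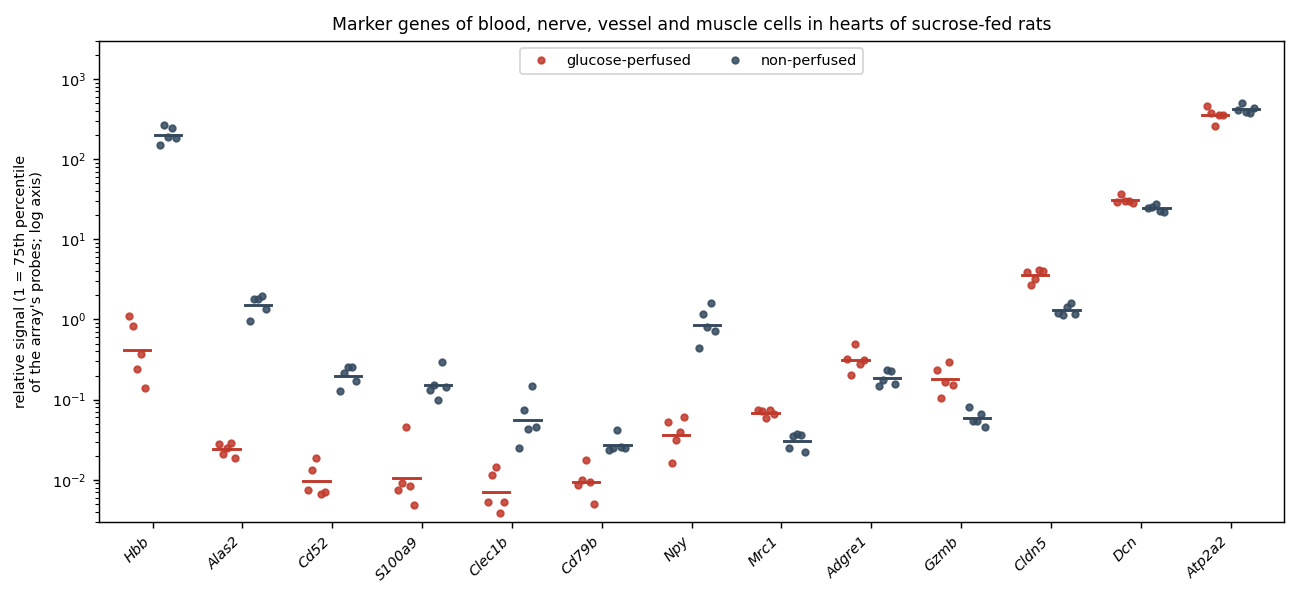
Relative signal (log axis) of 13 marker genes in each of 5 glucose-perfused (red, left) and 5 non-perfused (dark blue, right) hearts of sucrose-fed rats, with the mean of the log2 values as a line. Hbb lies at 0.141 to 1.11 in the glucose-perfused hearts and at 150.3 to 268 in the non-perfused hearts, while Atp2a2 of cardiomyocytes overlaps between the groups.

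The response was next set against the most similar one, that of chow-fed hearts to the same perfusion, which uses 10 other arrays. There too every non-perfused array lay in row 1 and every glucose-perfused array in row 2 of its slide. Row and perfusion thus cannot be told apart in either diet, and neither shared signs nor the test of the difference separates them. The test of the difference between the 2 responses passed for 0 of 18332 genes (0%) in limma, with 482 genes under an unadjusted p of 0.05. The 95% interval of a gene's difference reached a median of 0.42 to either side. Of the 1016 genes that rose in sucrose-fed hearts 1010 were also higher after perfusion in chow-fed hearts, and of the 581 that fell 570 were also lower. No share over all tested genes is given beside these counts, and the genes were chosen on the sucrose-fed arrays. Cxcl2 differed from non-perfused hearts by 7.20, SE 0.46 in sucrose-fed rats and by 6.02, SE 0.46 in chow-fed rats, a difference of responses of 1.18, 95% interval -0.15 to 2.51. For Angptl4 the responses were 3.39, SE 0.51 in sucrose-fed and 4.45, SE 0.51 in chow-fed rats (difference -1.05, 95% interval -2.54 to 0.43), for Irs2 3.19, SE 0.25 and 3.66, SE 0.25 (difference -0.47, 95% interval -1.21 to 0.27), and for Gfpt2 1.34, SE 0.24 and 0.59, SE 0.24 (difference 0.76, 95% interval 0.05 to 1.46). All 4 had an adjusted p of 1, and a p that misses the threshold does not show that the responses were alike. Among genes with a symbol, the 3 smallest p-values belonged to Tapbp, Nmrk1 and C6. Tapbp, of antigen loading, differed by -0.25, SE 0.09 in sucrose-fed and 0.23, SE 0.09 in chow-fed rats (unadjusted p = 5.34e-04, adjusted p = 1). Nmrk1, a nicotinamide riboside kinase gene, fell in sucrose-fed rats (log2 difference -0.57, SE 0.11, adjusted p = 6.79e-04) and differed by -0.02, SE 0.11 in chow-fed rats (unadjusted p = 0.0014, adjusted p = 1). C6, a complement gene, differed by 0.73, SE 0.55 in sucrose-fed and -1.96, SE 0.55 in chow-fed rats (unadjusted p = 0.00191, adjusted p = 1).

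**Figure D5:**
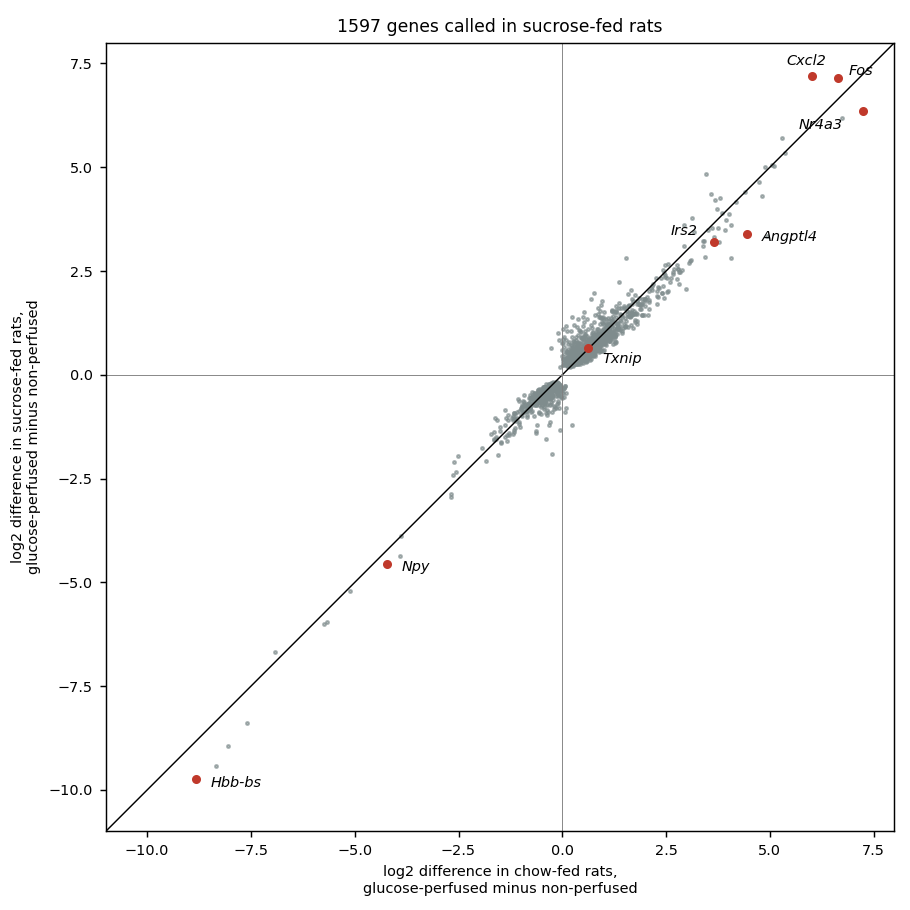
Log2 difference of glucose-perfused minus non-perfused hearts in sucrose-fed rats (vertical axis) and chow-fed rats (horizontal axis) for the 1597 genes called in sucrose-fed rats, each a point, with the line of equal differences. Named points are red, and 1010 of the 1016 rises and 570 of the 581 falls keep their sign in chow-fed rats; the selection was made on the vertical axis.

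Mannitol-perfused hearts of sucrose-fed rats, which had mannitol at 25 mmol/L in the buffer in place of glucose, share the non-perfused hearts as their comparison, so the responses are given side by side only. Setting the glucose-perfused directly against the mannitol-perfused hearts, 1 of 18332 genes passed (0.00545%), with 872 under an unadjusted p of 0.05, and that gene was Txnip. It had 18.6, 18.1, 11.0, 18.3 and 21.2 in the glucose-perfused hearts, against 8.75, 7.10, 7.94, 5.45 and 6.54 in the mannitol-perfused hearts, with no overlap, a difference of 1.27 on the log2 scale (SE 0.20, adjusted p = 0.0118). No gene passed without perfused replicate 1, 2, 4 or 5 or without mannitol-perfused replicate 5, and 2 genes passed without mannitol-perfused replicate 1 or 4. Against non-perfused hearts Txnip differed by 0.64, SE 0.20 with glucose and by -0.64, SE 0.20 with mannitol. Pdk4 differed from non-perfused hearts by 1.45, SE 0.23 with glucose and 1.15, SE 0.23 with mannitol, Pdp2 by 0.76, SE 0.16 and 0.37, SE 0.16, Angptl4 by 3.39, SE 0.51 and 2.47, SE 0.51, and Slc2a3 by 2.46, SE 0.22 and 2.49, SE 0.22. None of these 4 passed in the direct comparison of the buffers (adjusted p = 0.996, 0.996, 0.996 and 0.998).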

How the data were processed

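Total RNA of left ventricles was hybridised to 1-colour Agilent arrays. The processed intensity of each spot was deposited by the authors, made with Agilent Feature Extraction (10.3 per the submitters' processing notes, 11.0.1.1 per the file headers). The authors' deposited log2 table served as an alternative; its scaling is not given in the sources used here. Here log2 intensities were set against each array's 75th percentile, the brightest probe stood for a gene, and the 18332 genes detected above background in a group (on 4 or more of its 5 arrays) were tested with limma 3.58.1 (R 4.3.3) on 6 group means over 30 arrays, with Benjamini-Hochberg adjustment. Probes were named by accession through RefSeq (18355 of 30367). The test was checked on simulated data. Genes could be named if they were among the 15 largest called rises or falls without overlap, among up to 6 called members of a list by adjusted p or called against the majority of a list, in a short list of metabolic, stress and cell genes, or among the genes with the smallest p-values in the other comparisons. Members and lists were chosen with earlier results of these data known. Alternatives covered background, scaling, filters, probe choice, slide, replicate block and single arrays. The number of arrays limits the precision.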

Additional observations from a re-analysis of the deposited data

Results flagged for a closer look

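Of 272 groups of 5 arrays looked at for the genes named above, 16 held an array that stood apart from the other 4 by Dixon's criterion on the log2 scale, and chance gives about 1 in 20 groups. Glucose-perfused replicate 3 accounted for 5 of them, with relative signals of 0.854 for Aplnr, 0.763 for Il16, 55.8 for Rpl32, 0.0454 for S100a9 and 11.0 for Txnip. Glucose-perfused replicate 1 stood apart with 19.1 for Cxcl1 and 5.39 for Icam1, replicate 2 of that group with 0.228 for C6 and 0.828 for Lyve1, and replicate 5 with 0.182 for Ciart. Non-perfused replicate 1 stood apart with 0.372 for Ciart, 13.9 for Ddit3, 0.111 for Insr and 0.438 for Per2. Non-perfused replicate 3 stood apart with 0.0414 for Cd79b and replicate 4 with 0.245 for Nr4a3. The causes were not tested.

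Txnip was the gene whose response in sucrose-fed hearts differed between the glucose and mannitol buffers, by 1.27 on the log2 scale (adjusted p = 0.0118, limma). No gene passed that test in the authors' deposited values, with the replicate block or with only the groups compared.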

How the results depend on the processing

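The 1597 genes that changed became 851 after normexp background correction, 443 in the authors' deposited values, 1046 with only the 2 groups compared in the fit, and 835 with those groups and the replicate number as a block, which was added after seeing the data. In the authors' deposited values 93.0% of the calls were higher in the perfused hearts, against 63.6%. Slide as a block raised the count to 2263 if fixed (1264 higher and 999 lower) and 2165 if random, the other alternatives gave 1131 to 1698, and leaving out each array gave 1274 to 1535. The test against the chow response found 0 genes under every alternative, leave-one-out included. The test against mannitol found 2 genes with quantile normalization, slide as a fixed block and array weights, 0 in the authors' values, with the replicate block, with only the groups compared and with both of these together, and 0 to 2 leaving out each array. With slide as a fixed block and without the arrays of wide control spread it found 1 gene that was lower with glucose and 0 that were higher. Same-numbered arrays deviated together with correlations of 0.06, 0.20, 0.23, 0.38 and 0.16, against a mean of -0.05 between other numbers. Same-numbered arrays shared a slide, but as 1 of the 5 correlations was under 0.1 and the labels name no shared batch, the numbers were not taken as pairs; the replicate block gave 1475, 0 and 0 genes. Differences near 0 turned sign: Slc2a4 was -0.00726 with median scaling, -0.00327 after normexp, -0.00271 with array weights, -0.018 without the arrays of wide control spread and -0.025 with slide as a block as well, Slc2a1 was -0.010 with array weights, and Nppa was 0.033 without those arrays and 0.151 with slide as a block as well. Leaving out each array gave -0.035 to 0.057 for Slc2a4 and -0.025 to 0.092 for Slc2a1. The causes were not tested. Not every named gene entered every alternative. Of the 124 that changed, 119 were tested with the filter on the compared groups, 115 in the authors' deposited values and 85 with the filter on all 30 arrays. Among the 124, 91 passed under every alternative that tested them, and 33 lost the call under at least 1. Besides the losses given with the genes above, Dgat2, Gja5, Igfbp5, Lipe, Nmrk1 and Nr1h3 lost it in the authors' deposited values, Aplnr there and with only the 2 groups in the fit, Oasl after normexp, Per2 with only the 2 groups in the fit, and Gfpt2 with those groups and the replicate block. Cacnb2, Cd14, Cxcl12, Hsp90b1, Hyou1, Lyve1, Ogt, Rps10, Sdf2l1, Sec61b and Txnip lost the call without single arrays and also in the authors' deposited values. All of these but Sec61b and Txnip lost it after normexp too (adjusted p up to 0.886 for Hsp90b1 over all alternatives). Tcap also lost the call with no filter and without the arrays of wide control spread. Mrpl19, Nfkb2 and Trim63 lost it after normexp, in the authors' values and with the 2 groups and the replicate block, and Plin2 and Slc16a7 after normexp, in the authors' values and without the arrays of wide control spread. After normexp 33 of 136 differences moved by more than 1.5 times, all 33 towards 0. The rise of Fos was then 58.4-fold. Genes above background on no array of a group have bounds only, which hold for the processed intensity and not for other background corrections. After normexp the differences were 1.53-fold for Areg, 2.91-fold for Cd52, 1.95-fold for Clec1b, 1.86-fold for S100a8, 1.34-fold for Kcne3 and 1.36-fold for Cd79b. Folds of genes above background on some arrays rest partly on signal not above background. Cd79b, Clec1b, Il6, Kcne3 and S100a8 were above background on 4 or more of 5 arrays only in groups outside this comparison. They were not tested with the filter on the compared groups.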
